A study of Mus musculus with 6 samples.

Results

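A set of 10 genes of protein folding and stress control in the endoplasmic reticulum (ER) was read in mouse embryonic stem (ES) cells that carry a FLAG-CTCFL vector or a control vector. They were chosen by symbol: the platform annotation had to name the gene as Hspa5, Hsp90b1, Calr, Pdia4, Ero1a, Sdf2l1, Creld2, Dnajb9, Herpud1 or Xbp1, and the brightest probe set stood for each. All 10 were found among 19937 named genes, and Pdia4 alone had more than 1 probe set. The FLAG-CTCFL group held 3 biological replicates of 46C-derived ES cells with a vector coding for FLAG-tagged mouse CTCFL, and the control group 3 of the same background with a control vector. All cells carry the Sox1-GFP knock-in of the 46C line, are male and of 129P2/OlaHsd strain, and were kept in 10% serum with puromycin at 1 µg/ml. CTCFL is a testis-expressed relative of the architectural protein CTCF. The labels describe stable transfection and cells cloned from 46C but do not give the number of clones per group, and the p-values cover no more than the variation among these 6 arrays. From each replicate 200 ng of total RNA was taken, labelled with biotin and put on an Affymetrix Mouse Gene 1.0 ST array, and every level below is a log2 signal as deposited by the authors.

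Secretory and membrane proteins fold inside the ER with the help of chaperones, of disulfide-forming enzymes and of a quality control that sends failed products to the proteasome. When unfolded proteins build up, the chaperone BiP leaves the sensors IRE1, ATF6 and PERK, and these switch on the unfolded protein response. IRE1 splices the Xbp1 transcript and so yields an active transcription factor, ATF6 is cut to release another, and PERK slows translation while favouring ATF4. ATF6 and XBP1 act on short promoter sequences called ER stress elements, where they work with the CCAAT-binding factor NF-Y, and the genes of chaperones and of ER-associated degradation are their best known targets.

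Promoter windows of these genes, from 250 bases before to 50 bases after the annotated start, are shown for the genes on which the results turn, as RefSeq gives them. Hspa5 and Creld2 show the ER stress element (CCAAT, then 9 bases of any kind, then CCACG), Herpud1 shows the ER stress element II (ATTGG, then 1 base of any kind, then CCACG) and a sequence bound by ATF4 (TGATGCAA), and Sdf2l1 and Ero1a stand for the genes with the largest rise and the only fall. Capitals mark those elements on either strand and, in Ero1a alone, the hypoxia response core (ACGTG, on the reverse strand).
Hspa5 (GRCm38.p6, chr2:34771840-34772139, plus strand): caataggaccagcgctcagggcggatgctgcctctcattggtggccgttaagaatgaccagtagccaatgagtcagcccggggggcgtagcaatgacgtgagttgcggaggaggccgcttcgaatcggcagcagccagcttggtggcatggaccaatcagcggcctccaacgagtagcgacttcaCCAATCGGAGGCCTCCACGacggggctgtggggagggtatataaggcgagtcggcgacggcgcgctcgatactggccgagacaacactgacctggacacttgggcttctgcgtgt
Creld2 (GRCm38.p6, chr15:88819396-88819695, plus strand): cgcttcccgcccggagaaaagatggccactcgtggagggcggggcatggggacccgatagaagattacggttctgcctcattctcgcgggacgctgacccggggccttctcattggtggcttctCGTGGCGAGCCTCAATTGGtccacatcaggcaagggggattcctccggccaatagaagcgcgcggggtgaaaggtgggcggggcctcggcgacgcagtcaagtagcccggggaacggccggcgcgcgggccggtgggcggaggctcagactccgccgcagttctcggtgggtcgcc
Herpud1 (GRCm38.p6, chr8:94386179-94386478, plus strand): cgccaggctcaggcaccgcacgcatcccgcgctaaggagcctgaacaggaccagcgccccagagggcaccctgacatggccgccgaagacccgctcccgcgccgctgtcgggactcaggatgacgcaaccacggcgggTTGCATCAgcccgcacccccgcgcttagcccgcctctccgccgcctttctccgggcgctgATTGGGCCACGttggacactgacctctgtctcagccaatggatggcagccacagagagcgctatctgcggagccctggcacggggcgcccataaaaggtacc
Sdf2l1 (GRCm38.p6, chr16:17132334-17132633, minus strand, no match): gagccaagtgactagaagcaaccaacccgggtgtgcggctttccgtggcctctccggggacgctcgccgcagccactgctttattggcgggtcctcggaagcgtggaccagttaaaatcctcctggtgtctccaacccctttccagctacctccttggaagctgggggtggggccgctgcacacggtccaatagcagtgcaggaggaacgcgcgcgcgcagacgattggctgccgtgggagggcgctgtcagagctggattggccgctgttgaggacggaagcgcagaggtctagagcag
Ero1a (GRCm38.p6, chr14:45318523-45318822, minus strand): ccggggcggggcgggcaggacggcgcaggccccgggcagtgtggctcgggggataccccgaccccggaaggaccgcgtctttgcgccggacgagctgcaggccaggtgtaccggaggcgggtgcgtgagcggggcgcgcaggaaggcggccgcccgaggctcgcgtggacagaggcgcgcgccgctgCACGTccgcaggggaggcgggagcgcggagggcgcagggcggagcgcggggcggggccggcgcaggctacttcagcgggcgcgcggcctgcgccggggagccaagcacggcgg

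Positions are counted from the annotated start, with -1 as the last base before it. The ER stress element stood in Hspa5 from -65 to -47, in Creld2 on the reverse strand from -126 to -108, in Calr on the reverse strand from -162 to -144, and in Hsp90b1 at -212 to -194 and, on the reverse strand, at -107 to -89. It was therefore held by 4 of the 10 windows, against 0.119% of 32851 promoter windows in the table (39 windows). Herpud1 held the ER stress element II from -52 to -42, which 0.0365% of windows hold, and the ATF4 sequence on the reverse strand from -112 to -105, which 0.895% hold. The core of the UPR element (TGACGTGG, present in 0.676% of windows) was in none of the 10 windows. That core contains ACGTG, which is common (19.6% of windows) and was also found in Hspa5, Calr, Dnajb9 and Herpud1, overlapping the ER stress element II in Herpud1. The letters of a CTCF core motif (CCNCNAG, then 2 bases of any kind, then GGC, on either strand, in 2.44% of windows) were found in Calr alone, from -187 to -176. The motifs were chosen with the expression values known, the searches were for exact letters, and a window without a match may still hold a variant of an element. As genes of this kind are the best known targets of the ER stress elements, these shares are a description and no test of enrichment.

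Of the 10 genes, 3 rose in FLAG-CTCFL cells, Sdf2l1, Herpud1 and Creld2, and 1 fell, Ero1a, while the 4 abundant folding factors Hspa5, Hsp90b1, Calr and Pdia4 as well as Dnajb9 and Xbp1 did not pass the test. In limma's fit over all genes (Benjamini-Hochberg adjusted p below 0.05), 30.9% of the 19937 genes passed, 12.5% as higher and 18.4% as lower. Among genes above the median signal, where all 10 lie, 49.3% passed, 18.6% as higher and 30.8% as lower. A count of 4 of 10 is thus near the background and is no result about the set. The median log2 difference was 0.04 over the 10 genes, 0.0037 over all genes and -0.02 over genes above the median signal. The arrays of the 2 groups did not overlap for the 4 genes that passed and overlapped for the other 6, against 41.3% without overlap over all genes and 59.5% above the median signal.

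Ctcfl itself was at 11.33, 11.22 and 11.24 in FLAG-CTCFL arrays, against 7.70, 7.85 and 7.89 in control arrays, so the vector gene follows the labels. Ctcf differed by 0.01 (95% interval -0.09 to 0.12, limma adjusted p = 0.880). Array medians lay between 7.92 and 7.99, and the SD of all probe sets was smallest (1.41) in FLAG-CTCFL replicate 2, against 1.44 to 1.47 in the other arrays. This array read the lowest of its group for 9 of the 10 genes and FLAG-CTCFL replicate 1 the highest for 9 of the 10. Among the 9968 genes above the median signal these orders were seen for 60.2% and 56.4%. Counts and calls that moved after quantile normalization of the arrays are therefore given beside the main ones below. ES cell identity was checked with 11 listed markers, none of which lay in the range of silent genes (a mean below 7.63, under which 95% of 1194 olfactory or vomeronasal receptor genes lay). Their mean log2 signal was 11.88 to 12.03 in FLAG-CTCFL arrays and 12.26 to 12.27 in control arrays. Of the 11, 7 were lower and none higher (7 and 1 after quantile normalization). As deposited, these 7 were 63.6% of the list, against 30.8% lower among genes above the median signal and 18.4% lower among all genes. Of 12 markers of extraembryonic endoderm, a tissue rich in ER, 3 were higher and 2 lower (41.7% called, and 2 and 2 after quantile normalization). Their mean lay at 8.40 to 8.44 in FLAG-CTCFL arrays, against 8.37 to 8.39 in control arrays, with Sox17, Afp and Ttr in the range of silent genes. Of 11 fibroblast markers 1 was higher and 1 lower (18.2% called, and 3 and 1 after quantile normalization). Their mean lay at 8.25 to 8.30 in FLAG-CTCFL arrays and 8.26 to 8.28 in control arrays, with Postn, Lum and Dcn in the range of silent genes. Over all genes 30.9% were called, and 49.3% of genes above the median signal. The part of these markers in the results below was not tested, and in bulk RNA a changed share of cells and a changed level per cell cannot be told apart.

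**Figure D1:**
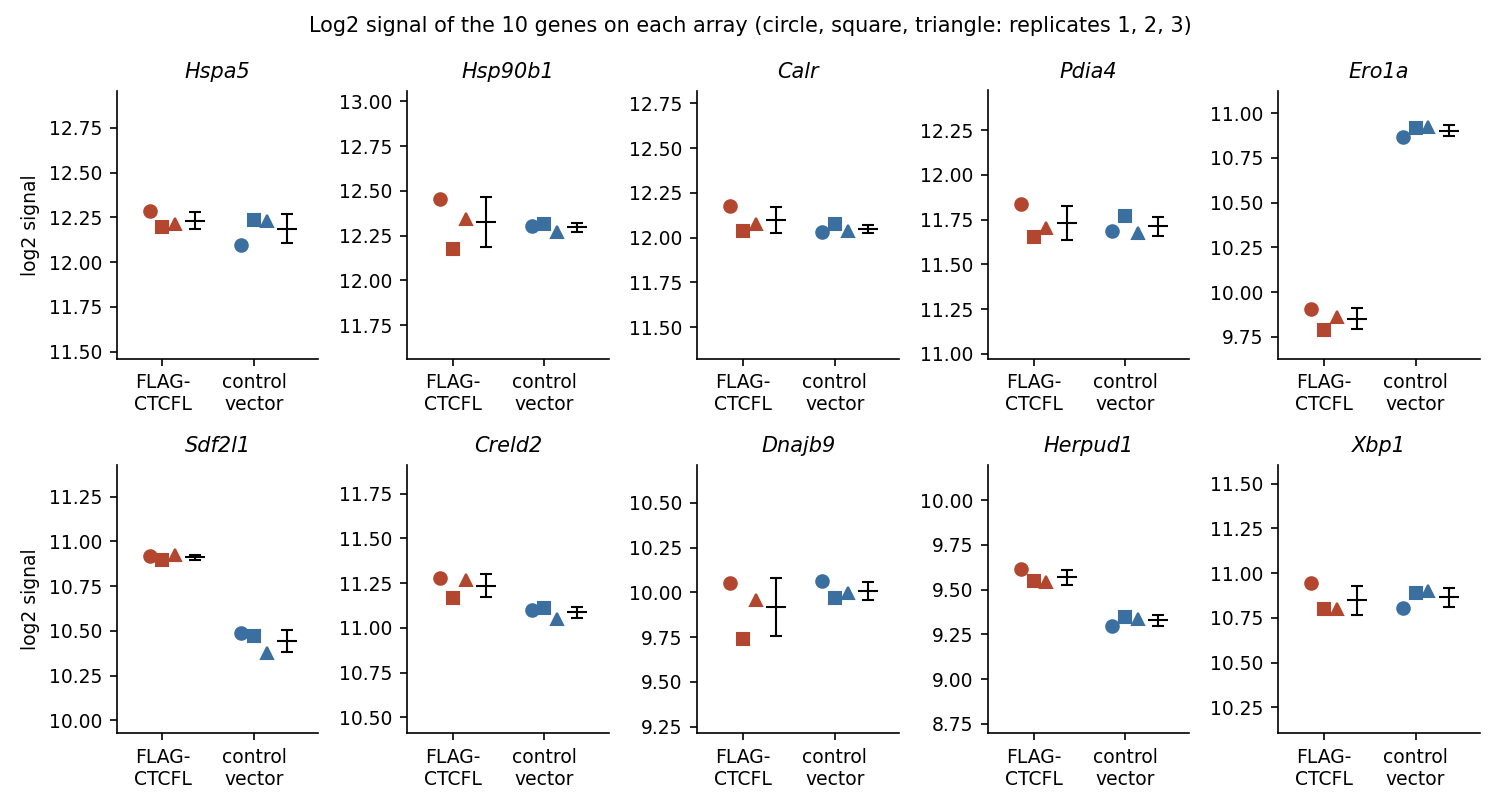
Log2 signal (vertical axis, each panel spanning the same range of log2 units) of each of the 10 genes on the 3 FLAG-CTCFL arrays (red, left) and the 3 control vector arrays (blue, right), with circles, squares and triangles for replicates 1, 2 and 3 and black marks for the mean ± SD. The groups are apart for Ero1a, Sdf2l1, Herpud1 and Creld2 and overlap in the other 6 panels.

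Hspa5 codes for BiP, the Hsp70 of the ER that binds nascent chains and holds the stress sensors inactive, and its level is the usual gauge of the response. It was at 12.28, 12.20 and 12.21 in FLAG-CTCFL arrays, against 12.09, 12.23 and 12.23 in control arrays. The groups overlapped, and the log2 difference of 0.04 had a 95% interval of -0.06 to 0.15 (limma adjusted p = 0.598). As deposited, a rise of Hspa5 beyond 0.15 on the log2 scale therefore lay outside the interval. After quantile normalization the difference was 0.08 (limma adjusted p = 0.238), and this limit does not cover that scaling.

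Hsp90b1 codes for the Hsp90 of the ER, which matures integrins and other membrane proteins. It was at 12.45, 12.18 and 12.35 in FLAG-CTCFL arrays, against 12.30, 12.32 and 12.27 in control arrays, so the FLAG-CTCFL arrays lay on both sides of the controls (0.03, 95% interval -0.10 to 0.16). Calr codes for calreticulin, a calcium-binding lectin that folds glycoproteins. Its levels were 12.18, 12.03 and 12.08 in FLAG-CTCFL arrays and 12.03, 12.08 and 12.04 in control arrays (0.05, interval -0.05 to 0.15). Pdia4, a protein disulfide isomerase, read 11.84, 11.66 and 11.70 in FLAG-CTCFL arrays and 11.69, 11.77 and 11.68 in control arrays (0.02, interval -0.10 to 0.13). Its second, dimmer probe set differed by 0.05. These genes overlapped between the groups, with limma adjusted p of 0.801 for Hsp90b1, 0.524 for Calr and 0.849 for Pdia4. After quantile normalization Calr (0.10, adjusted p = 0.0345) and Pdia4 (0.10, adjusted p = 0.0486) passed as higher, whereas Hspa5 (0.08) and Hsp90b1 (0.04) did not.

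Sdf2l1 codes for a small ER protein that keeps BiP and the cochaperone DNAJB11 at their clients, and is a known target of the unfolded protein response. Its log2 signal was 10.92, 10.90 and 10.92 in FLAG-CTCFL arrays, against 10.49, 10.47 and 10.37 in control arrays. Every FLAG-CTCFL array was above every control array, and the FLAG-CTCFL values spread less than the control values. The rise was 0.47 ± 0.045 on the log2 scale (SE of limma's fit over all genes, 3 arrays per group) or 1.38-fold. It had limma adjusted p = 3.37e-06 and was the largest rise among the 10 genes. Its 20 nearest measured genes on chromosome 16 had a median of -0.0001, with 2 higher and 5 lower.

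Creld2, an ER protein with EGF-like repeats that is secreted in part and is induced by ER stress, read 11.28, 11.16 and 11.27 in FLAG-CTCFL arrays, against 11.10, 11.11 and 11.05 in control arrays. The groups did not overlap, and the rise was 0.15 ± 0.05 (SE; 95% interval 0.05 to 0.25; limma adjusted p = 0.0240). This call was near the threshold: it was lost when any array except FLAG-CTCFL replicate 2 was left out (adjusted p = 0.0549 to 0.104) and with a variance trend and robust estimation (0.0507). Creld2 shares its promoter region with Alg12, a mannosyltransferase gene of N-glycan synthesis read in the opposite direction, and the ER stress element printed above lies in both windows. Alg12, picked out after its value was seen, differed by 0.05 (interval -0.05 to 0.14; adjusted p = 0.509) and passed as higher after quantile normalization.

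Dnajb9 codes for a J-domain cochaperone that directs BiP to misfolded clients and to IRE1. It was at 10.05, 9.74 and 9.96 in FLAG-CTCFL arrays, against 10.06, 9.97 and 10.00 in control arrays. With FLAG-CTCFL replicate 2 apart from the other arrays, the difference of -0.09 (95% interval -0.24 to 0.06) did not pass (limma adjusted p = 0.379), and it was -0.0023 without that array.

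Ero1a codes for the oxidase that passes oxidising power to protein disulfide isomerases, and is known as a target of hypoxia signalling as well as of ER stress. Its log2 signal was 9.91, 9.79 and 9.86 in FLAG-CTCFL arrays, against 10.87, 10.92 and 10.92 in control arrays. The groups lay far apart, and Ero1a fell by 1.05 on the log2 scale (SE 0.05; 2.07-fold lower; limma adjusted p = 2.85e-09). It was the only member that fell. Its paralog Ero1b, whose promoter window holds an ER stress element, differed by 0.07 (95% interval -0.05 to 0.19; adjusted p = 0.403).

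The fall of Ero1a stood beside falls of its neighbours on chromosome 14. Of its 20 nearest measured genes, 10 on either side, 7 had a mean in the range of silent genes. Of the other 13, 10 were lower and none higher (Sftpa1, Sftpd and Cgrrf1 did not pass, at 0.16, 0.06 and -0.13), with a median log2 difference of -0.50. The next gene to one side, the proteasome subunit gene Psmc6, fell by 0.38, Txndc16, an ER thioredoxin-like gene 2 places to the other side, by 0.50, the hexosamine synthesis gene Gnpnat1 by 1.05, and the growth factor gene Bmp4, 6 places on, by 1.26. Over the whole of chromosome 14, 255 of 485 genes above the range of silent genes were lower (52.6%) and 40 higher, against 22.7% lower on the chromosomes other than 6, 14 and X. The share of lower genes was 49.1% on chromosome X and 35.1% on chromosome 6, so a high share was not particular to chromosome 14. Over all 20 neighbours, silent genes included, the median was -0.26 for Ero1a. For the other 9 members the medians of the 20 neighbours were between -0.09 for Hspa5 and 0.06 for Herpud1, and 0.0026 for Pdia4 on chromosome 6. Whether Ero1a fell with its chromosomal region or on its own cannot be told apart with these arrays.

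**Figure D2:**
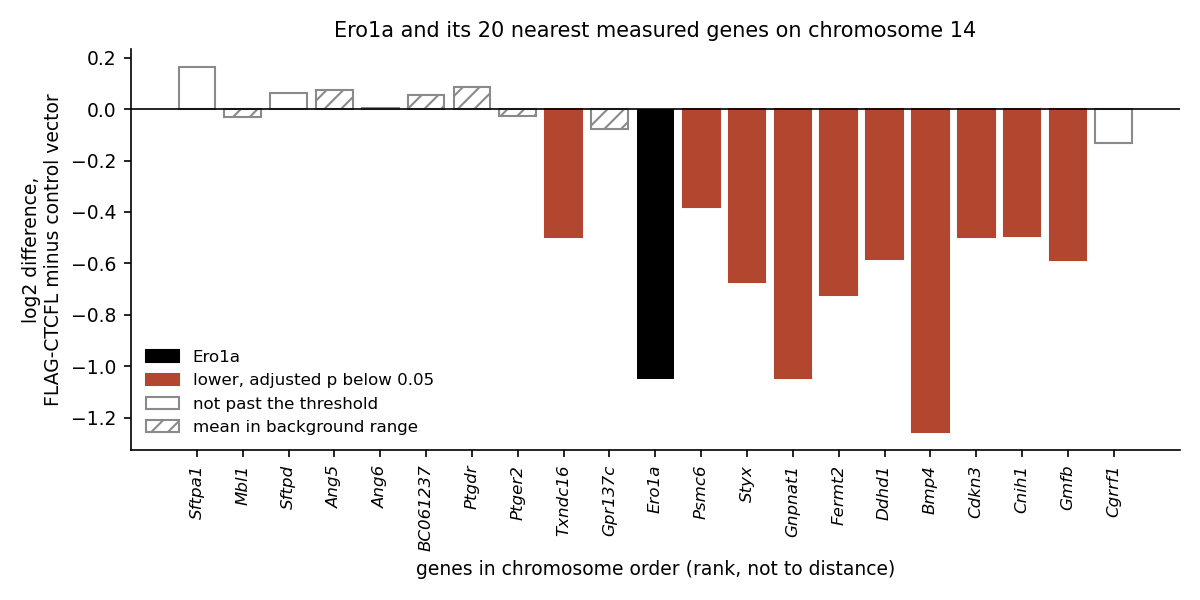
Log2 difference (FLAG-CTCFL minus control vector, vertical axis) of Ero1a (black) and of the 10 measured genes on either side in chromosome order (horizontal axis, ranks and not distances), with filled red bars for genes lower at adjusted p below 0.05, open bars for genes that did not pass and hatching for means in the range of silent genes. The run from Txndc16 to Gmfb holds 10 lower genes around Ero1a.

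The 5 genes whose 6 array values, each centred on its own mean, lay nearest to those of Ero1a were Rcbtb1, Cab39l, Mtmr9, Gm2a and Elf3, among the genes above the median signal. Their root mean square distances to Ero1a were 0.0258 to 0.0405 log2 units over the 6 arrays. The SDs of Ero1a within groups were small (0.06 in FLAG-CTCFL and 0.03 in control arrays). Such a distance therefore mostly picks genes with a group difference of like size. Rcbtb1 (-1.04), Cab39l (-1.03) and Mtmr9 (-1.07) are also genes of chromosome 14, whereas Gm2a (-1.08) lies on chromosome 11 and Elf3 (-1.09) on chromosome 1.

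Herpud1 codes for a short-lived membrane protein that builds up the HRD1 complex of ER-associated degradation, and its gene answers to ATF6, XBP1 and ATF4. It was at 9.62, 9.55 and 9.54 in FLAG-CTCFL arrays, against 9.30, 9.35 and 9.34 in control arrays. The groups did not overlap, and the rise was 0.24 ± 0.04 (SE; 1.18-fold; limma adjusted p = 0.000738). The 95% intervals of Sdf2l1 (0.37 to 0.57) and Herpud1 (0.15 to 0.33) did not overlap each other, while that of Creld2 (0.05 to 0.25) overlapped that of Herpud1. The rises of these genes were not tested against each other.

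Xbp1 codes for the transcription factor that IRE1 activates by splicing, and its gene is itself raised by ATF6 in the response. Its level was 10.94, 10.80 and 10.80 in FLAG-CTCFL arrays, against 10.80, 10.89 and 10.90 in control arrays. The groups overlapped, and the difference of -0.02 (95% interval -0.13 to 0.09; limma adjusted p = 0.864) turned to 0.06 after quantile normalization without passing. The deposited table gives 1 value for the gene, so the spliced and unspliced forms are not told apart.

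**Figure D3:**
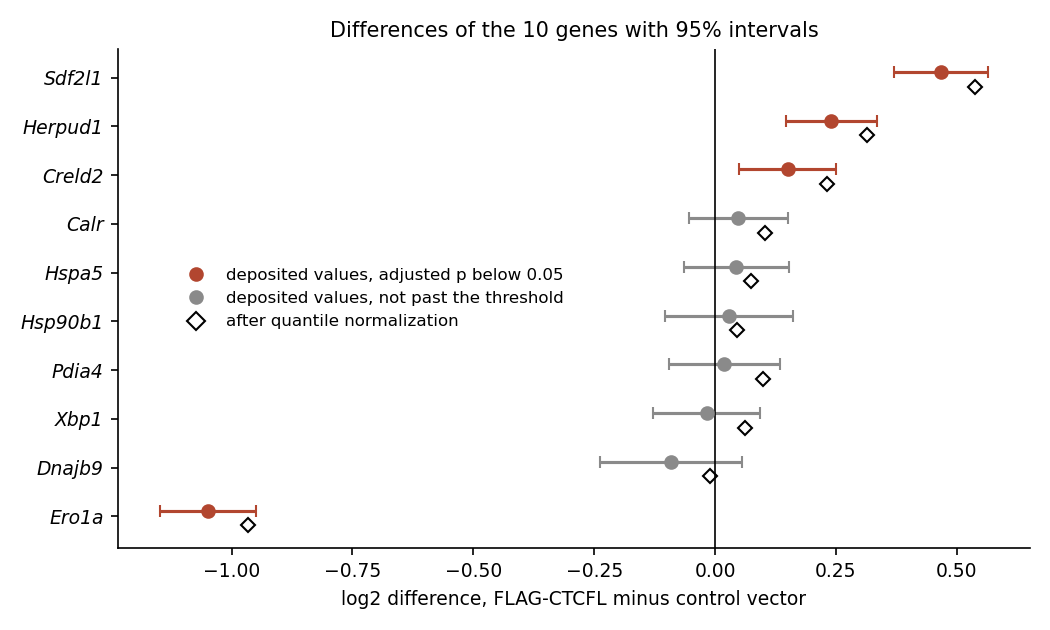
Log2 difference (FLAG-CTCFL minus control vector, horizontal axis) of each of the 10 genes (rows) with its 95% interval, in red where adjusted p was below 0.05 and grey otherwise, and the value after quantile normalization as an open diamond. Sdf2l1, Herpud1 and Creld2 lie to the right of 0 and Ero1a far to the left, and every diamond lies to the right of its point.

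The other 6 genes were also read relative to the mean of Hspa5, Hsp90b1, Calr and Pdia4 on the same array, with the control mean set to 0. Sdf2l1 was then at 0.35, 0.50 and 0.45 in FLAG-CTCFL arrays, against 0.08, -0.01 and -0.06 in control arrays, and Herpud1 at 0.16, 0.27 and 0.19 in FLAG-CTCFL arrays, against -0.0007, -0.02 and 0.02 in control arrays. The groups stayed apart for both, with relative differences of 0.43 and 0.21. Creld2 lay at 0.07, 0.12 and 0.16 in FLAG-CTCFL arrays, against 0.04, -0.02 and -0.03 in control arrays (0.11), and Ero1a differed by -1.08. For these 4 genes the two-sided exact permutation p was 0.1, the smallest that 3 against 3 arrays allow. As the groups of these genes were already apart on the same arrays, this p is no separate support for their calls. Dnajb9 (-0.13) and Xbp1 (-0.05) gave exact permutation p = 0.2. This reading compares differences within an array and was chosen after the values were seen.

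The rest of the pathway was read in 10 lists with 220 measured genes, of which 45 were higher and 40 lower (38.6%, median 0.01), between the 30.9% of all genes and the 49.3% of genes above the median signal given above. Of the 206 list genes above the median signal 39.3% passed, 44 as higher and 37 as lower. For the single lists this share ran from 28.1% (translocon, signal peptidase and oligosaccharyltransferase) to 52.2% (PERK-ATF4 branch). The split depended on the scaling, with 80 higher and 34 lower after quantile normalization and 46 and 34 after subtraction of array medians. All genes moved the same way, with 3943 higher and 3306 lower after quantile normalization. Of the called genes of the whole table, 40.5% were higher as deposited and 54.4% after quantile normalization. For the lists these shares were 52.9% and 70.2%. Without genes of chromosomes 6, 14 and X, an alternative added after the data were seen, 40 of 191 were higher and 30 lower. Of the sensors and their processing factors 4 of 15 were higher and 2 lower (7 and 2 after quantile normalization). Creb3 (0.41) and Creb3l1 (0.40), which code for ER-bound factors cut like ATF6, rose with limma adjusted p of 3.00e-05 and 1.97e-05. Of the same family, and picked out after their values were seen, Creb3l4 fell by 0.18 (adjusted p = 0.00618) and Creb3l2 differed by -0.11 (95% interval -0.21 to -0.02; adjusted p = 0.0679, and passing as lower with array weights and without FLAG-CTCFL replicate 2). In the FLAG-CTCFL group, array weights put most weight on replicate 3 (5.77, against 0.41 and 0.32 for replicates 1 and 2). The NF-Y subunit genes moved apart, with Nfya at -0.37 and Nfyc at 0.29 (adjusted p = 4.53e-05 and 0.000298). Among the sensor genes themselves, picked out after their values were seen, Ern1, which codes for IRE1, rose by 0.19 (adjusted p = 0.00316). Atf6 differed by 0.15 (adjusted p = 0.0547; it passed in 6 alternatives, quantile normalization among them), and Eif2ak3, the gene of PERK, by 0.05 (95% interval -0.04 to 0.14), passing as higher after quantile normalization alone.

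Among other ER chaperones and cochaperones 4 of 24 were higher and 4 lower, and after quantile normalization 8 and 3. Cnpy3, a cochaperone of the ER Hsp90 for Toll-like receptors, rose by 0.23 (limma adjusted p = 0.00113) and Dnajb11, the BiP cochaperone that works with Sdf2l1, by 0.18 (0.00492). The peptidyl-prolyl isomerase genes Ppic (-0.27) and Fkbp7 (-0.23) fell. Hyou1, a nucleotide exchange factor of BiP, rose by 0.17 (adjusted p = 0.0119, and 0.0703 without control vector replicate 2), and Manf, a secreted ER stress protein, by 0.18 (0.00709). Sil1, another nucleotide exchange factor of BiP, fell by 0.14 (adjusted p = 0.0210). Sil1 did not pass after quantile normalization (0.193), after subtraction of array medians (0.0549) and without FLAG-CTCFL replicate 3 (0.0526) or control vector replicate 2 (0.0624) or 3 (0.0917). Sec63, a J-domain partner of BiP at the translocon, fell by 0.18 (0.0124, and 0.0739 without control vector replicate 2), and these 4 genes were picked out after their values were seen. Canx, the membrane-bound partner of calreticulin, differed by 0.03 (95% interval -0.07 to 0.14) and Dnajc3, a BiP cochaperone and PERK inhibitor, by 0.0091. Canx, Dnajc3, Ero1b, Pdia6, Derl3 and Syvn1 are pathway genes with an ER stress element in their promoter window.

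The thiol oxidoreductases held 2 higher and 5 lower genes of 22, which turned to 6 and 4 after quantile normalization. Txndc16 (-0.50, on chromosome 14), Gpx7, a peroxidase that feeds disulfide formation (-0.37), and Selenom (-0.23) fell, and Txndc15 fell by 0.16 (adjusted p = 0.0123), a call lost without control vector replicate 2. P4hb, the main protein disulfide isomerase gene, rose by 0.17 (limma adjusted p = 0.0127), a call lost without control vector replicate 2 (0.0542) or 3 (0.0634). Pdia6 differed by 0.09 (adjusted p = 0.146) and passed after quantile normalization. In the N-glycan folding cycle 3 of 12 were higher and 2 lower (5 and 2 after quantile normalization). Uggt2, a sensor of misfolded glycoproteins, rose by 0.34 (chromosome 14), Mogs, the first glucosidase of the cycle, rose by 0.20 (chromosome 6), and Edem2 (-0.27), a mannose-trimming factor, and the cargo receptor gene Lman1 (-0.29) fell.

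ER-associated degradation held 7 higher and 5 lower genes of 30, and 15 and 4 after quantile normalization. Of its 29 genes above the median signal 41.4% passed, against 49.3% of all genes above that signal. The rises included Vcp, the ATPase that pulls substrates from the membrane (0.39, limma adjusted p = 7.06e-05), and Ube2g2, a conjugating enzyme of the pathway (0.39, 1.48e-05). Trim13, an ER-anchored ubiquitin ligase gene on chromosome 14, fell by 2.04 (adjusted p = 7.06e-12), more than any other gene of the 10 lists, and Ngly1, a cytosolic deglycosylase gene on the same chromosome, fell by 0.42. Derl3, picked out after its value was seen, fell by 0.19 (adjusted p = 0.00454), and Syvn1, the gene of HRD1, differed by 0.06 (95% interval -0.04 to 0.17) and passed as higher after quantile normalization alone.

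At the translocon, signal peptidase and oligosaccharyltransferase 5 of 32 genes were higher and 4 lower (10 and 4 after quantile normalization), and 5 and 1 of 26 outside chromosomes 6, 14 and X. The largest falls were in Magt1 (-0.79) and Ssr4 (-0.51), both on chromosome X, and in Dad1 (-0.47), on chromosome 14, subunits of the oligosaccharyltransferase and of the translocon-associated complex. Spcs3, of signal peptidase, fell by 0.24. In the COPII coat and retrieval list 5 of 28 were higher and 7 lower, turning to 8 and 5 after quantile normalization, with Ergic1 (-0.70) and Sec16a (-0.31) lower and Sec24d (0.32) and the small GTPase gene Sar1a (0.23) higher.

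On the PERK-ATF4 branch 7 of 26 genes were higher and 5 lower (10 and 4 after quantile normalization), and 5 and 4 of 23 outside chromosomes 6, 14 and X. Atf4 rose by 0.46 (limma adjusted p = 1.45e-05), Atf3 by 0.71 (1.34e-07) and the mitochondrial folate enzyme gene Mthfd2, on chromosome 6, by 0.53. Phgdh, of serine synthesis, fell by 0.31. Ddit3, the gene of CHOP and a usual marker of PERK output, differed by 0.07 (95% interval -0.02 to 0.16; adjusted p = 0.254).

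**Figure D4:**
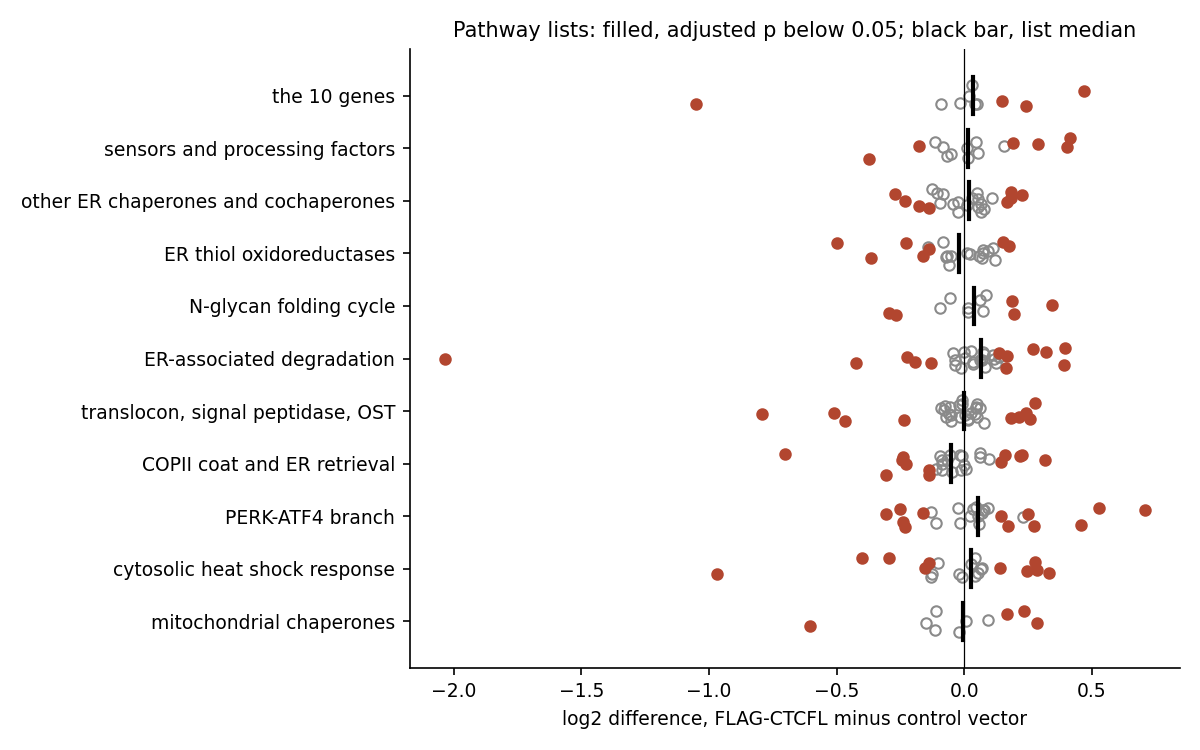
Log2 difference (FLAG-CTCFL minus control vector, horizontal axis) of each measured gene of the 10 genes and of the 10 pathway lists (rows), filled where adjusted p was below 0.05 and open otherwise, with a black bar at each list's median. The list medians lie between -0.05 and 0.07, and the far left point of ER-associated degradation is Trim13 (-2.04).

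Genes were last grouped by promoter sequence instead of by name. Of 17 measured genes with the ER stress element that are not among the 10, 1 was higher and 3 lower, with a median log2 difference of 0.06, and after quantile normalization 5 were higher, Alg12, Pdia6 and Syvn1 among them, and 3 lower. The count of higher genes was also 5 with array weights, 2 without FLAG-CTCFL replicate 2 and 0 without control vector replicate 2 or without the dimmer genes below the median signal. The lower genes were Adcy3 (-0.66), Acacb (-0.24) and Derl3, and the higher gene was Tdrd9 (0.15), all named after their values were seen. Of 8 further genes with the ER stress element II, Dnajb11 (0.18) and Krtcap2 (0.21), an oligosaccharyltransferase subunit gene, were higher and Lgalsl (-0.40) was lower (median 0.03; 3 higher and 1 lower after quantile normalization, 3 and 2 with array weights). Of 143 with the core of the UPR element 24 were higher and 26 lower (median 0.02), and 43 and 20 after quantile normalization. Of 127 further genes with the ATF4 sequence 7 were higher and 18 lower (median 0.01), with 20 and 16 after quantile normalization and 18 higher and 26 lower with array weights. Krtcap2 and Lgalsl were named after their values were seen. These counts stand beside the 30.9% of all genes that passed, 12.5% as higher and 18.4% as lower. After quantile normalization 3943 of all genes were higher and 3306 lower.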

How the data were processed

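The values are log2 signals, 1 per probe set and array, deposited by the authors in the series' value table. Their range is that of log2 values, and how they were background-corrected, summarised and normalized is not stated by any label or header used here. Per the labels' protocols, RNA was labelled with a WT terminal labelling kit. Probe sets with 1 gene symbol (21640 of 34760) were kept, names were updated by Entrez ID through GRCm38.p6 (21553 matched), and the brightest of a gene's probe sets was used. Over 19937 genes, FLAG-CTCFL was set against control vector by lmFit and eBayes of limma (version 3.58.1; R version 4.3.3; 1 term, the group; two-sided; Benjamini-Hochberg over all genes; threshold 0.05), a procedure tested on simulated data. Exact permutation tests used scipy 1.17.1. The number of arrays limits the precision.

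The members, lists and tests were chosen with earlier results of these data known. Named genes were Ctcfl, the members, and from each list those past the threshold with a log2 difference of at least 0.5 and up to 4 with the smallest p, beside the 5 nearest patterns; Ctcf, Canx, Dnajc3, Ero1b, Eif2ak3, Ddit3 and others outside this rule were picked after their values were seen. As alternatives, the replicate number entered as a block, arrays were quantile-normalized or centred on their medians, genes under the 25th or 50th percentile were dropped, probe sets were averaged, eBayes ran with a trend and robustly, arrays were weighted, and each array was left out; dropping chromosomes 6, 14 and X was added after the data were seen. Array weights were 0.41, 0.32 and 5.77 for FLAG-CTCFL replicates 1, 2 and 3, and 0.98 to 1.24 for control arrays. Calls with array weights therefore rest mostly on FLAG-CTCFL replicate 3 for that group. Promoters came from RefSeq (GRCm38.p6). No array dates were used, and no batch could be tested.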

Additional observations from a re-analysis of the deposited data

How the results depend on the processing

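Ero1a (-1.08 to -1.02 with 1 array left out), Sdf2l1 (0.43 to 0.49) and Herpud1 (0.22 to 0.25) kept their direction and their call under every alternative run on them; Ero1a had no value without chromosomes 6, 14 and X, where 3 of 8 members were higher and 0 lower. Creld2 (0.13 to 0.19 with 1 array left out) did not keep its call, as given with its values, and read 0.15 at adjusted p = 0.0507 with a variance trend. With 1 array left out the other members spanned -0.0021 to 0.0679 (Hspa5), -0.04 to 0.10 (Hsp90b1), 0.0083 to 0.08 (Calr), -0.0330 to 0.0573 (Pdia4), -0.16 to -0.0023 (Dnajb9) and -0.0650 to 0.0072 (Xbp1), without passing. Of these, Hspa5 turned to -0.0021 without control vector replicate 1, Hsp90b1 to -0.0356 and Pdia4 to -0.0330 without FLAG-CTCFL replicate 1, and Xbp1 to 0.0072, 0.0069 and 0.0008 without FLAG-CTCFL replicate 2 or 3 or control vector replicate 3. Quantile normalization gave 5 higher members, 3943 higher genes in all (3306 lower) and 80 of the lists, with Calr at 0.1031, Pdia4 at 0.0994 and Xbp1 at 0.0616; Xbp1 was at 0.0005 after subtraction of array medians and Pdia4 at -0.0072 with array weights, which gave 4195 higher genes. Values turned also for Ctcf (-0.0052), Canx (-0.0202) with array weights, for Ctcf (-0.0232), Canx (-0.0054) and Dnajc3 (-0.0015) without FLAG-CTCFL replicate 1, for Dnajc3 (-0.0044) without FLAG-CTCFL replicate 3, and for Ctcf (-0.0070) and Dnajc3 (-0.0107) without control vector replicate 1; none of these passed, and with 1 array left out they reached at most 0.0407 (Ctcf), 0.0611 (Canx) and 0.0331 (Dnajc3). With 1 array left out, 4950 to 6429 genes passed (1905 to 2818 higher, 3045 to 3880 lower), 2 to 3 members were higher and 1 lower with a median of -0.01 to 0.07, and 36 to 52 list genes were higher and 31 to 47 lower. The median of the neighbours of Ero1a was -0.28 to -0.22, and -0.4962 and -0.5882 without genes under the 25th and 50th percentile, which removes silent neighbours. Apart from that, the causes were not tested. Whether replicate numbers pair the samples could not be told. Deviations of same-numbered arrays correlated at 0.13, -0.20 and -0.02, and those of arrays with unlike numbers at -0.35 to 0.34. As unlike numbers gave the larger values, this measure cannot settle the question. The replicate block gave 5979 genes (2398 higher, 3581 lower), with 3 members higher and 1 lower. It kept each member's call (Creld2 at limma adjusted p = 0.0377). Signal over background limits none of the 10 members, which all lay above the range of silent genes.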

Other observations

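Chaperone genes outside the ER were called at shares near that of genes above the median signal (49.3%), among which all of the measured ones lie: 47.6% of the cytosolic heat shock list and 40.0% of the mitochondrial list. Of 21 measured genes of the cytosolic heat shock response 5 were higher and 5 lower, and 7 and 5 after quantile normalization. Hspb8, a small heat shock protein gene, fell by 0.97 on the log2 scale (limma adjusted p = 2.15e-08). Bag3, its partner in chaperone-assisted autophagy, was at -0.29 (limma adjusted p = 0.000326). Fkbp4 (chromosome 6), a cochaperone of Hsp90 for steroid receptors, fell by 0.40. Hsph1, a nucleotide exchange factor of cytosolic Hsp70, rose by 0.33 (0.000342). The constitutive Hsp70 gene Hspa8, picked out after its value was seen, differed by 0.07 (95% interval -0.03 to 0.17). It passed as higher with array weights alone (0.0280), which in the FLAG-CTCFL group rest mostly on replicate 3.

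Of 10 mitochondrial chaperone and protease genes 3 were higher and 1 lower (4 and 1 after quantile normalization). Lonp1, the matrix protease gene, rose by 0.29 (limma adjusted p = 0.000863). The paralogs Grpel1 and Grpel2, nucleotide exchange factors of the mitochondrial Hsp70, moved apart, with Grpel1 at 0.24 (0.00189) and Grpel2 at -0.60 (2.54e-07). Trap1 rose by 0.17 (0.0269), a call lost when any array except FLAG-CTCFL replicate 2 was left out (0.0530 to 0.0935).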
